A study of Marmota monax with 20 samples.

Results

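A group of 101 woodchuck genes had scaled read counts that were lower in every liver than in every library of the other tissues examined. The genes were chosen by their counts in the 20 libraries themselves, out of 30973 genes of the Monax4B annotation. A level here is a normalised count, that is, the count of a library divided by its size factor (the median, over the 16970 genes above 0 in all libraries, of the count over the geometric mean). A gene was taken when its lowest level in the 14 libraries outside liver was at least 100 and at least 3 times its highest level in the 6 livers plus 5. The floor of 100 was met by 11761 genes and the ratio, called the score below, by 101 of them, or 0.859%. The levels in liver against the other tissues are therefore a description and carry no test. None of the 101 genes was at 0 counts in every liver, so they are low in liver rather than missing from it.

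The liver is built mostly of hepatocytes, which secrete plasma proteins and carry out much of the metabolism of sugars, lipids and bile acids. Hepatocytes use liver forms of several enzymes that other organs express from another gene, and they make ketone bodies but lack the transferase with which heart, kidney and other organs burn them. Genes that are widely active elsewhere and low in hepatocytes are thus a known feature of mammalian liver. The table pairs no identifier with a gene name, and 0 of the 30973 identifiers matched the RefSeq table of the woodchuck genome, so the genes are given by identifier, without position or function, and the tissue labels could not be checked against marker genes. Gene lengths were not analysed here either, so levels are compared between libraries and not between genes.

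Polyadenylated RNA was sequenced from 6 untreated adult Eastern woodchucks (Marmota monax), all without infection by woodchuck hepatitis virus. Liver came from the females F6849, F9150 and F6852 and from 3 males, M4046, M4075 and M4091. All of them but F6852 also gave a kidney and a spleen. Heart and lung were taken from F6849 and pancreas and thymus from F9150, so these 4 tissues have 1 library each and no replicate. Total counts were 59487004 to 140252555 per library, and the size factors ran from 0.490 to 0.833 in liver, from 1.07 to 1.79 in kidney and from 1.05 to 2.02 in spleen. The median of the genes that met the floor stayed between 1938 and 2149 in all 20 libraries at these factors.

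In liver the 101 genes had a median level of 88.6 ± 13.2 (SD, n = 6 livers), against 1416 ± 82.5 (SD, n = 5) over the spleens and 1705 ± 143 (SD, n = 5) over the kidneys. The median was 2199 in the heart library, 1596 in lung, 1565 in thymus and 1097 in pancreas. The liver medians ran from 73.4 to 111 and the lowest of the others was that of pancreas. For the middle gene the mean level in liver was 4.46% of the mean over the 6 other tissues, with a range of 0.243% to 14.4% over the 101 genes. On the log2 scale, with 5 added to each level, this is a median difference of -4.36, and single livers had medians of -4.54 (F6852) to -4.14 (M4046). In bulk tissue, fewer cells of a type and less RNA per cell cannot be told apart. The mean liver level of each gene was also taken as a percentage of its mean in each tissue. The median of these percentages over the genes was 5.03% for heart, 5.35% for kidney, 5.77% for lung, 6.28% for thymus, 6.85% for spleen and 9.50% for pancreas.

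**Figure D1:**
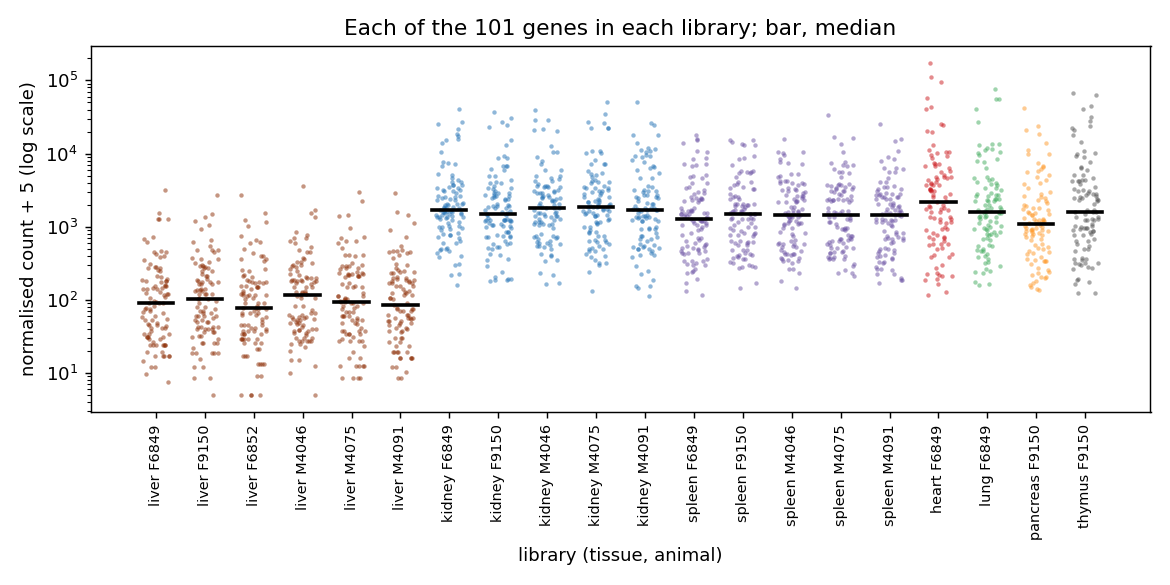
Each point is 1 of the 101 genes in 1 library, as the normalised count plus 5 on a log axis, and the black bar is the median of the library. The livers have medians of 73.4 to 111 (before 5 was added) and all other libraries have medians of 1097 or more, which the choice of the genes fixes.

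As a share of all counts the 101 genes held 0.452% ± 0.0306 (SD, n = 5) in the spleens, 0.675% ± 0.0374 (SD, n = 5) in the kidneys and 0.0130% ± 0.00114 (SD, n = 6) in the livers. The shares were 1.02% in heart (95% Wilson interval 1.019% to 1.024%), 0.905% in lung (0.904% to 0.907%), 0.743% in thymus (0.740% to 0.745%) and 0.156% in pancreas (0.155% to 0.156%). These intervals cover counting error only, and they are too narrow even for that where both mates of a pair or PCR copies of a molecule were counted as separate reads. The share in pancreas was below that of the other tissues outside liver, although the median level there was 1097, and the size factor of that library was 0.443.

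The counts left in liver were rarely 0. Of the 606 values of the genes in the livers, 6 were 0, in 4 genes, and 75 genes had at least 10 counts in every liver. At least 10 counts were found for 86 to 96 genes per liver and for all 101 in each library outside liver. The gene with the least in liver relative to the other tissues was Monax4B002049, with 0 counts in 3 of the 6 livers and at most 8 counts in any. At the other end Monax4B031959 had 86 to 170 counts per liver, a level 14.4% of its mean elsewhere. Among the livers, that of M4046 had the highest level for 30 of the 101 genes and that of F6852 the lowest for 27. Their total counts were 134403756 and 82874390. The liver of F6849 had the largest total, 140252555, with the highest level for 10 genes and the lowest for 25. The part of depth in these numbers was not tested.

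The highest score, 14.5, was that of Monax4B002321. Its level was from 19.2 to 61.9 in liver (median 43.9, n = 6). It was 2554, 1972, 3618, 7176 and 6348 in the kidneys of F6849, F9150, M4046, M4075 and M4091, the order used for all values below, and 1329.5, 1676, 1072, 966 and 1509.7 in the spleens. The single libraries had 973 in thymus, 3021 in pancreas, 3977 in lung and 19566 in heart. The heart level was thus the highest of all 20 libraries, and thymus and the spleen of M4075 were the lowest outside liver, while the highest liver was at 61.9.

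Monax4B022337 followed with a score of 9.28. Its level was from 54.9 to 115 in liver (median 78.5, n = 6), 5304, 3546, 4261, 3375 and 2678 in kidney and 1116, 1588, 2276, 2419.8 and 2695 in spleen. It was 4352 in thymus, 1228 in pancreas, 7785 in lung and 2672 in heart. Lung was the highest and the spleen of F6849 the lowest library outside liver. The other 99 genes had scores from 3.00 to 8.82. In all, 24 genes had a score of at least 5 and 48 a score under 4.

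The last gene inside the limit, Monax4B016360, had a highest liver level of 259.7 (M4075) and a lowest level elsewhere of 794 (thymus), a score of 3.00. The first gene outside, Monax4B012972, had 869.6 in the liver of F9150 and 2619 in pancreas, a score of 2.99. At the floor, Monax4B016259 was inside with a lowest level of 109 outside liver and Monax4B033489 was outside with 92.8. A further 164 genes met the floor with a score between 2 and 3, and 20 genes had a score of at least 3 but fell under the floor.

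The livers were not near 0 for every gene. Monax4B025337 was measured from 2711 to 3539 in liver (median 2943, n = 6), in the spleens at 15519 ± 663 (SD, n = 5) and in the kidneys at 23086 ± 3907 (SD, n = 5). Its level was 44194 in thymus, 18515 in pancreas, 27004 in lung and 56602 in heart. Every library outside liver lay at or above 14529, the value of the spleen of F9150. Monax4B027025 was measured from 1107 to 2257 in liver (median 1499, n = 6), in the spleens at 14999 ± 2895 (SD, n = 5) and in the kidneys at 26764 ± 5916 (SD, n = 5), and it was 67675 in thymus, 21053 in pancreas, 76029.6 in lung and 96444 in heart. Heart was the highest library for both genes. These 2 genes have the largest lowest level outside liver and also the highest level in a liver library.

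The genes differed among themselves in where outside liver they were highest. By the mean of each tissue, 29 were highest in heart, 18 in kidney, 18 in thymus, 13 in lung, 12 in spleen and 11 in pancreas. Pancreas was the lowest of the 6 tissues for 36 genes, spleen for 19, thymus for 17, lung for 14, heart for 11 and kidney for 4. The highest and lowest tissues were not counted over the genes that met the floor. Heart, lung, pancreas and thymus are single libraries set against means of 5, and 71 genes were highest in 1 of them. The part of this in these numbers was not tested. The ratio of the highest to the lowest of the 14 libraries outside liver was 8.44 for the middle gene and ran from 1.95 to 82.9. It was under 5 for 28 genes, under 10 for 62 and over 50 for 5. In the map of levels by library the rows are sorted by the tissue of the highest mean, and this order makes the heart-high and thymus-high genes form blocks.

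**Figure D2:**
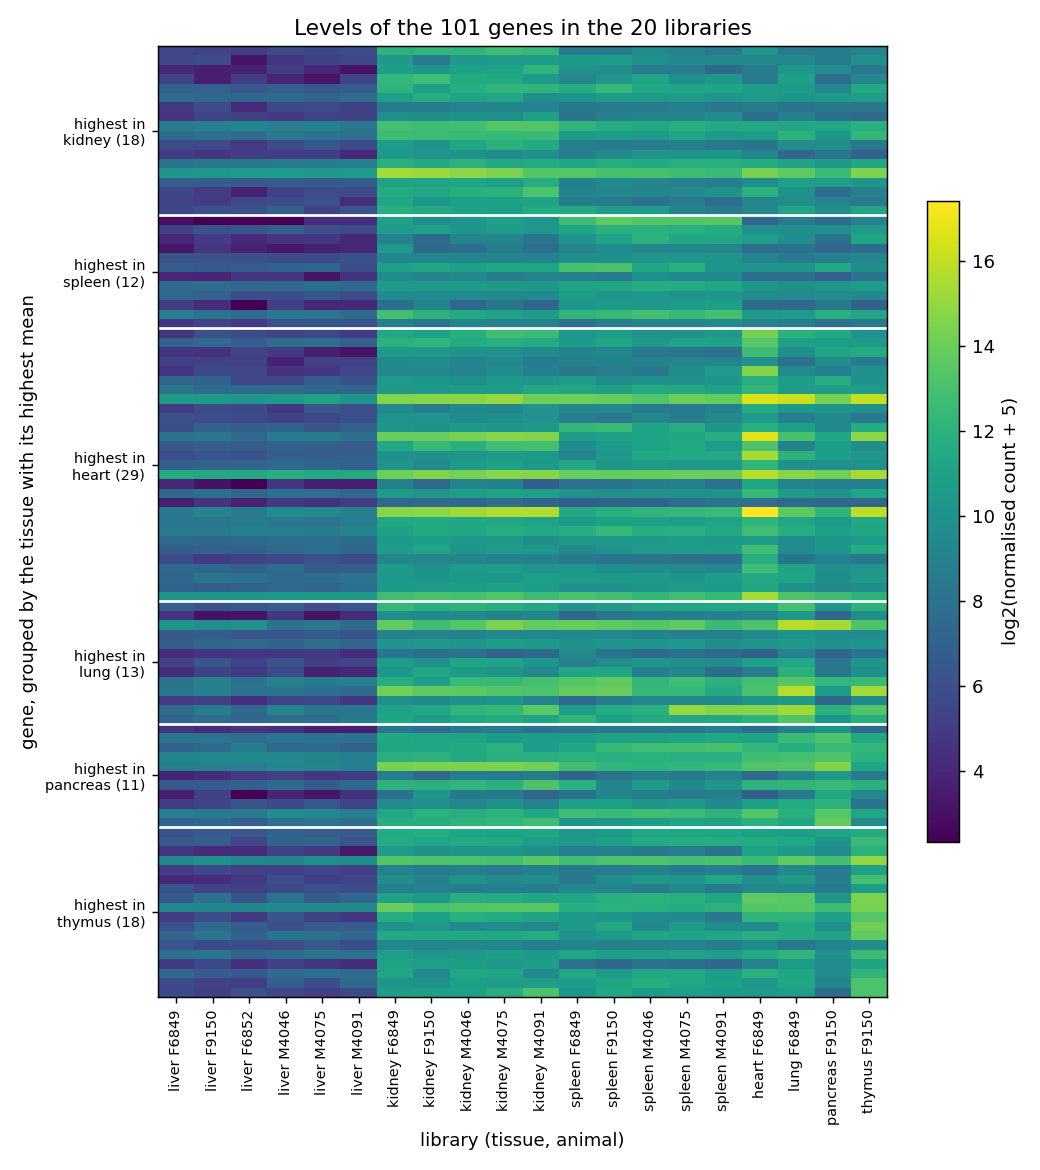
Rows are the 101 genes, grouped by the tissue in which their mean is highest (number of genes in brackets), columns are the 20 libraries, and colour is log2 of the normalised count plus 5. The 6 liver columns on the left are darker than all others in every row, which the choice of the genes fixes, and the heart column is the brightest for 26 genes and the thymus column for 16.

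The most even genes were Monax4B045986 and Monax4B031959. Monax4B045986 was measured from 113 to 212 in liver (median 155, n = 6), in the spleens at 1101 ± 155 (SD, n = 5) and in the kidneys at 1377 ± 231 (SD, n = 5), and at 1228 in thymus, 1097 in pancreas, 1399 in lung and 1102 in heart. Its highest library outside liver was 1.95 times the lowest. Kidney and spleen overlapped, and the difference between them did not pass the threshold (log2 fold change 0.30, SE 0.15, adjusted p of 0.0978 by edgeR). Monax4B031959 was measured from 162 to 227 in liver (median 187, n = 6), in the spleens at 1423 ± 130.5 (SD, n = 5) and in the kidneys at 1364 ± 306 (SD, n = 5), and at 1560.5 in thymus, 1287 in pancreas, 794 in lung and 1580.4 in heart, a ratio of 2.23. Lung was its lowest library.

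In the single libraries, the gene that stood furthest above the other 13 libraries outside liver was taken from each tissue. In heart this was Monax4B047340, at 25073, 15.9 times the next highest library, the spleen of M4091 at 1573. Its levels were 686, 748, 556, 847 and 457 in kidney, 309, 432, 337, 931 and 1573 in spleen and from 17.6 to 48.1 in liver (median 31.4, n = 6). In thymus it was Monax4B005678, at 18192, 6.25 times the level in lung (2912). It was measured at 885 ± 231 (SD, n = 5) in kidney, at 1433 ± 808 (SD, n = 5) in spleen and from 60.3 to 172 in liver (median 94.5, n = 6). With 1 library per tissue these are values of single libraries.

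Pancreas and lung had weaker peaks. Monax4B017973 had 1445 in pancreas, 2.69 times the level in lung (538), with 395, 174, 406, 375 and 404 in kidney, 128, 268, 417, 391 and 505 in spleen and from 9.61 to 32.7 in liver (median 23.2, n = 6). Monax4B026508 had 10193 in lung, 2.08 times the spleen of F6849 (4894), and it was measured at 2361 ± 544 (SD, n = 5) in kidney and from 142 to 369 in liver (median 199, n = 6). Counting all genes of the group, 14 were at least 2 times higher in heart than in any other library, 8 in thymus, 4 in pancreas and 1 in lung. The same was not counted over the genes that met the floor.

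Kidney and spleen come from the same 5 animals. The choice of the genes did not use the direction between them, but it did use their levels. A gene very low in either tissue could not pass the rule. The shares of the 101 genes below are therefore not independent of the choice, and the part of the choice in them was not tested. In kidney 36 of the 101 genes were higher and in spleen 14, at an adjusted p of at most 0.05 (edgeR's quasi-likelihood test, fitted to the 19918 genes with sufficient counts in these 10 libraries). Over all genes tested, 33.5% were higher in kidney and 31.3% higher in spleen. Of the 101 genes these were 35.6% and 13.9%, so that the share higher in kidney was near the background and the share higher in spleen was below it. Over the 11761 genes that met the floor it was 33.2% and 32.2%. The median log2 fold change of kidney over spleen was 0.19 for the 101 genes and 0.01 over all genes tested, and the median of its size without sign was 0.72, between 0.61 for the genes that met the floor and 0.85 for all genes tested. The libraries of the tissues did not overlap for 35 of the 101 genes (34.7%), with 27 higher in kidney and 8 in spleen. Of all 19918 genes tested they did not overlap for 10327 (51.8%), with 5632 higher in kidney and 4695 in spleen. In a test for a difference of over 2-fold, 16 genes were higher in kidney (15.8%, against 17.4% of all genes tested) and 3 in spleen (2.97%, against 13.3%). With the sequencing lane as a term and liver in the fit, 26 genes were called higher in kidney (25.7%, against 25.1% of all genes in that fit) and 9 in spleen (8.91%, against 23%).

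Among the genes higher in kidney, Monax4B010999 had 4133, 4975, 4876, 7227 and 5410.0 in the kidneys and 361, 374, 780.5, 527 and 374 in the spleens. Kidney was above spleen in all 5 animals without overlap (log2 fold change 3.44, SE 0.26, adjusted p of 1.97e-06 by edgeR). The single libraries had 535 in thymus, 420.0 in pancreas, 386 in lung and 1161 in heart, and the gene was measured from 28.6 to 51.5 in liver (median 42.4, n = 6). Every kidney was above every library of the other tissues.

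Monax4B040853 had 26923, 30220.3, 39068, 50367 and 50225 in kidney and 2749, 3771, 4719, 5392 and 6346 in spleen, again without overlap (log2 fold change 3.08, SE 0.27, adjusted p of 4.43e-06 by edgeR). Heart, at 175456, and thymus, at 62429, were higher than any kidney. Lung had 13245 and pancreas 4726. In liver the gene was measured from 375 to 773 (median 510.2, n = 6).

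Among the genes higher in spleen, Monax4B002049 had 6700.3, 13218, 10493, 10378 and 10998 in the spleens and 1802, 846, 1227, 1829 and 1178 in the kidneys (log2 fold change -2.93, SE 0.26, adjusted p of 5.00e-06 by edgeR). Spleen was the highest tissue and kidney the next, and the single libraries had 485 in thymus, 212 in pancreas, 358 in lung and 159.5 in heart. In liver the levels of F6849, F9150, F6852, M4046, M4075 and M4091 were 2.40, 0, 0, 0, 14.6 and 14.5. Monax4B027689 had 1191, 2059, 4233, 2326 and 2502 in spleen and 509, 186, 584, 514 and 285 in kidney (log2 fold change -2.58, SE 0.40, adjusted p of 0.00024 by edgeR). It was 2341 in thymus, 253 in pancreas, 828 in lung and 1772 in heart, and from 10.8 to 27.5 in liver (median 16.2, n = 6). Heart and thymus therefore lay within the range of the spleens and pancreas within that of the kidneys.

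**Figure D3:**
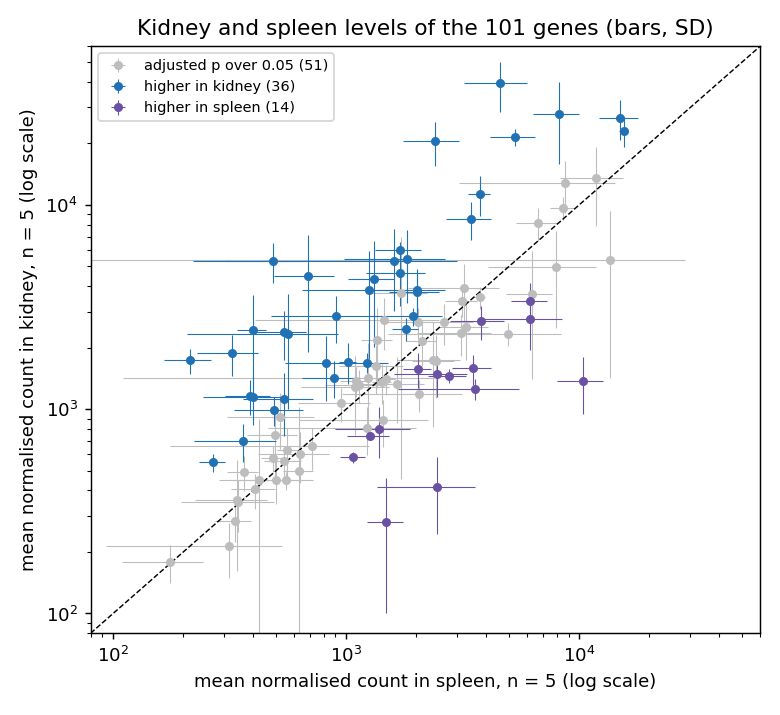
Each point is 1 of the 101 genes, with its mean normalised count in 5 spleens (x axis) and 5 kidneys (y axis) on log axes, bars for the SD (bars whose SD is as large as the mean run to the edge) and a dashed line of equal levels. The 36 genes called higher in kidney lie above the line, the 14 called higher in spleen below it, and 51 did not pass the threshold.

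Females and males were compared in liver, where 9 of the 101 genes were removed by the filter on low counts and 92 were tested. Of these, 1 differed at an adjusted p of at most 0.05, and 1.27% of all 17547 genes tested did. At an unadjusted p under 0.05 there were 8 genes (8.70% of the 92), against 18.3% of all genes tested, and 7 of the 8 were higher in males. The direction was not counted over all genes at this limit. The middle gene of the group had 36 to 88 counts per liver, and the rule limited the highest liver level. The part of these in the lower share was not tested. DESeq2 called 2 of the 101 genes (1.98%), against 6.15% of the 23313 genes with any count in liver. Genes that its own filter left without an adjusted p, if any, are included in both shares. The gene past the threshold was Monax4B018540. It had 1263, 932 and 1024 in the livers of the females F6849, F9150 and F6852 and 256, 318 and 184 in those of the males M4046, M4075 and M4091. The means were 1073 ± 171 (SD, n = 3) in females and 253 ± 66.9 (SD, n = 3) in males (log2 fold change of males over females -2.12, SE 0.26, adjusted p of 0.0253 by edgeR). Without the liver of F6852, M4046 or M4075 the adjusted p was 0.100, 0.101 and 0.0615 by edgeR, with log2 fold changes of -2.14, -2.12 and -2.32, and 9, 20 and 22 genes in all were called in these smaller fits. No lane held livers of both sexes, so lane and sex cannot be told apart.

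Outside liver Monax4B018540 did not separate the sexes. It had 14137, 6771, 10637, 22144 and 13914 in kidney, females first, and 15631, 12942, 10635, 13467 and 6282 in spleen, with the 2 females and 3 males overlapping in both tissues. Whether its sex difference depends on the tissue was not tested. Lung, at 56426, and pancreas, at 42395, were above all kidneys and spleens, and heart had 9622 and thymus 9855.

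**Figure D4:**
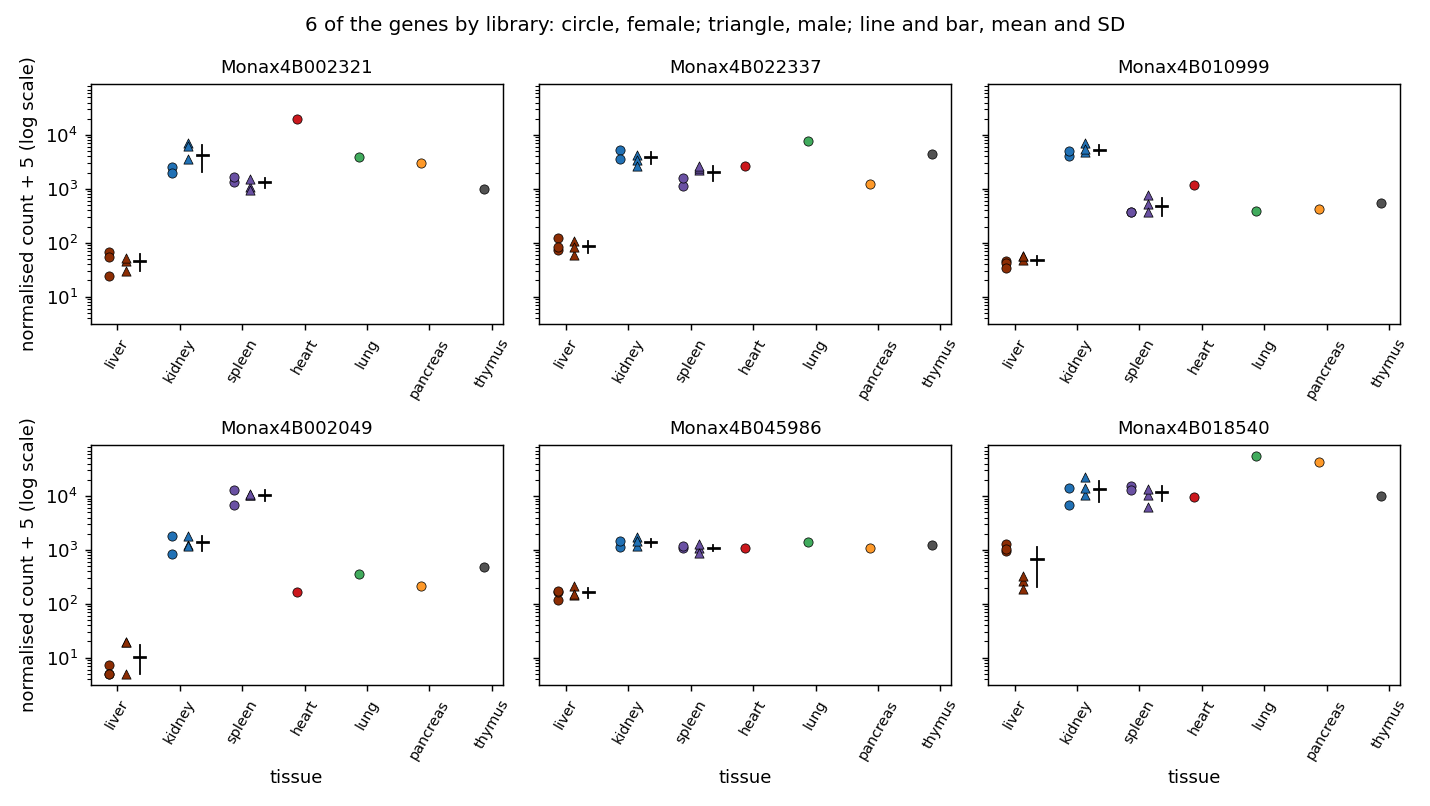
The normalised count plus 5 of 6 of the genes in each library, on a log axis, by tissue, with circles for females, triangles for males and the mean and SD beside liver, kidney and spleen. Monax4B018540 has 3 female livers above 3 male livers, Monax4B010999 is highest in kidney, Monax4B002049 in spleen, and Monax4B045986 varies by 1.95-fold outside liver.

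Without a test, the levels of females and males did not overlap in liver for 16 of the 101 genes (15.8%), 14 of them higher in males, against 24.2% of all genes tested. The directions given here were not counted over all genes. In kidney they did not overlap for 40 genes (39.6%), 19 higher in females and 21 in males, against 24.9% of all genes, and in spleen for 51 genes (50.5%), 21 higher in females and 30 in males, against 40.7%. Both female kidneys were run in 1 lane and the male kidneys in others, and no spleens of different sex shared a lane, so here too lane and sex cannot be told apart.

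Between animals, the middle gene of the group had a larger spread than that of all genes that met the floor. The SD of log2(level + 5) over the animals had a median of 0.36 in kidney, 0.39 in spleen and 0.44 in liver, against 0.20, 0.25 and 0.27 for the 11761 genes that met the floor, a difference given without a test. In liver the sets differed in level, with library medians of 73.4 to 111 for the 101 genes and 2075 to 2146 for those that met the floor. The part of level in the spread was not tested. The range over the 101 genes was 0.04 to 1.21 in kidney, 0.06 to 1.94 in spleen and 0.08 to 1.18 in liver. An SD over 1 was found for 4 genes in kidney (3.96%), 9 in spleen (8.91%) and 4 in liver (3.96%). Of the genes that met the floor these were 1.36%, 1.97% and 2.15%.

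The same rule was turned to each other tissue as the low one. It gave 71 genes for spleen, 33 for pancreas, 28 for heart, 16 for thymus, 2 for kidney and 1 for lung, against 101 for liver. Low in the 5 spleens were thus 0.622% of the 11409 genes that met the floor elsewhere, and low in the 5 kidneys 0.0178% of 11226. Heart, lung, pancreas and thymus have only 1 library each on the low side, which makes the rule easier to meet. They have more libraries on the other side, which makes it harder, and the net effect was not tested. With 5 of the 6 livers the rule gave 103 to 121 genes. The numbers depended on the scaling. With TMM factors they were 107 for liver, 66 for spleen and 34 for pancreas, whereas with library totals alone they were 312, 27 and 294. At library totals the median of the genes that met the floor had a log2 difference between liver and the other tissues of -1.24, against -0.11 with the size factors used.

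**Figure D5:**
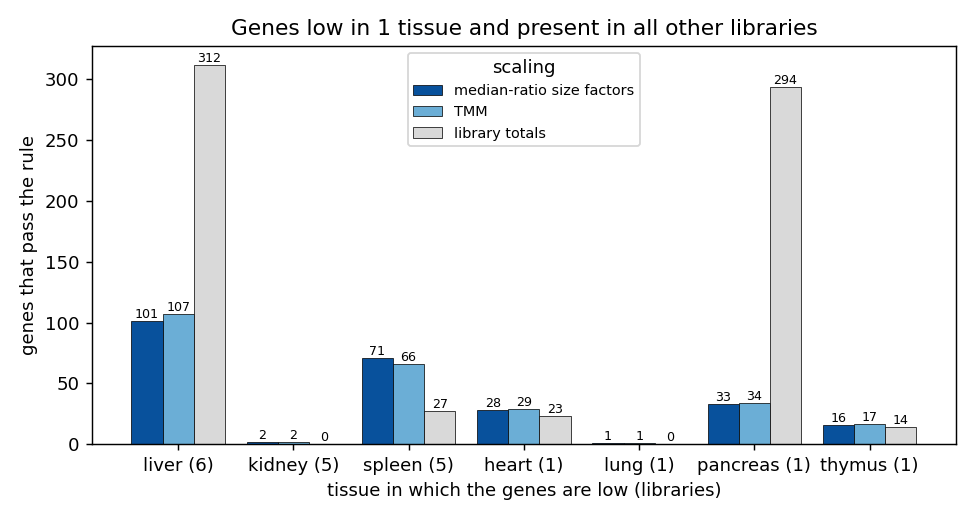
Bars give the number of genes that pass the rule with each tissue in turn as the low one (number of its libraries in brackets), under 3 scalings. Liver has 101 genes and spleen 71 with median-ratio size factors, and library totals alone raise liver to 312 and pancreas to 294.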

How the data were processed

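RNA of 20 tissue samples was sequenced as paired reads. For mapping, the authors used the gem-tools rna-mapper 1.6.1, and for counting gemtools 1.7.1 on the Monax4B annotation, and the deposited values are raw read counts per gene, whole numbers without normalization. In each library 85.1% to 86.5% of the counts above 0 are even, which counting both mates of a pair would give. Tissue and animal come from the labels, and sex from the first letter of the animal's name. Libraries of 1 animal are paired by the labels, and their deviations from the kidney and spleen means correlated at 0.126 to 0.347 in the 5 animals.

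Levels and the rule were computed in Python 3.11.15 (figures with matplotlib 3.10.9). Tests were run in R 4.3.3 with edgeR 4.0.16: filterByExpr, TMM factors and its quasi-likelihood test with robust dispersions. A gene was called at an adjusted p (Benjamini-Hochberg, over all genes tested) of at most 0.05. The SE given with a log2 fold change is not an output of edgeR. It was computed as the fold change without sign over the square root of the test's F statistic. Kidney and spleen were fitted without liver and without a block, and livers by sex alone. These fits were also run on simulated counts with a fixed dispersion and no effect of animal or lane. That setting differs from the data, so it checks the code and not the error rate here. The alternatives were DESeq2 1.42.0, RLE factors, library totals, no filter, the animal or lane as a term, liver added, a 2-fold test, other limits of the rule and each library left out.

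Identifiers named are at most 2 per criterion and direction: the highest scores, the largest lowest level outside liver, the highest level in a liver, the most even, the largest fold change between kidney and spleen without overlap, the furthest above in each single library, those past the threshold by sex in liver, and those at the limit. The genes and criteria were chosen with earlier results of these data known.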

Additional observations from a re-analysis of the deposited data

Results flagged for a closer look

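Among 57 sets of 5 or 6 libraries, 3 had a library far from the rest of its tissue (a gap to its neighbour that takes up most of the range of the tissue), and chance gives about 1 in 20. The median level of the 101 genes was 1270.0 in the spleen of F6849, while the 4 others had 1439 to 1471, and this library also had the largest total count of the spleens, 123267969. The part of depth in this value was not tested. Monax4B026508 was at 369 in the liver of M4091, against 142 to 208 in the other livers, and its score was 3.01. Monax4B017973 was at 174 in the kidney of F9150, against 375 to 406 in the other kidneys.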

How the results depend on the processing

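The number of genes that passed the rule was 312 with library totals alone, 24 with a score of at least 5 and 292 with only the liver, kidney and spleen libraries, and 83, 24 and 101 of the 101 genes were among them. With each of the 20 libraries left out in turn it ranged from 99 (kidney of F6849 or of M4075) to 145 (pancreas), and at least 99 of the 101 genes remained. Other constants and floors and TMM factors gave 75 to 114 genes. The median log2 difference between liver and the other tissues was -5.39 with library totals alone and stayed between -4.38 and -4.27 with each liver left out. Between kidney and spleen 50 genes were called (49.5%), against 64.8% of all 19918 genes tested. There were 19 when a change of over 2-fold was required (6115 of all) and 35 with the lane as a term (9992 of all 20764). With each library left out 46 to 52 were called, against 12313 to 13145 of the 20197 to 20269 genes tested. With the animal as a block, which pairs the libraries, 51 were called, against 12722 of all 19918 genes tested. The calls of the 4 genes named between kidney and spleen held in all 72 alternative fits of them. These genes were picked for the largest differences in the same libraries, so refits of those libraries add little. By sex in liver, 1 gene was called, 2 by DESeq2 and 0 to 1 with each liver left out. Over all genes 223 were called, and 9 to 133 with each liver left out. DESeq2 called 1433 of all genes, or 6.15% of the 23313 with any count in liver. The second gene of DESeq2, named after its values were seen, is Monax4B017073, higher in males (log2 fold change 1.61, adjusted p = 0.0494). Stricter limits and fewer libraries change the rule itself, and for the other settings the cause was not tested. In liver the middle gene had 36 to 88 counts per library, and 9 genes had too few counts for the test by sex.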

Other observations

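The genes with the largest spread between spleens were looked up after their values were seen, and no test was made. Monax4B000036 had 1612, 3278, 3836, 33829 and 25285 in the spleens of F6849, F9150, M4046, M4075 and M4091, so that M4075 and M4091 stood far above the other animals. In the kidneys of these animals it had 2077, 2703, 4665, 5349.6 and 11968, where M4091 was the highest, and lung, at 40140.2, was the highest library. Monax4B016774 had 2441, 2516, 441, 639 and 195 in the spleens, both females above the males, and 1326, 2495, 1521, 1121 and 676 in the kidneys, where the sexes overlapped.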
